A study of Mus musculus with 6 samples.

Results

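The surface glycoproteins and stored proteins that define platelets and megakaryocytes were followed in sorted mouse haematopoietic stem and progenitor cells (HSPCs) with and without Med12. Members were all probe sets annotated to exactly 1 symbol among Itga2b, Itgb3, Gp1ba, Gp1bb, Gp5, Gp9, Gp6, Vwf, Pf4 and Cd9. This gave 11 probe sets of 9 genes, out of 45037 probe sets tested and 18193 genes named; Gp1ba was not analysed here. The HSPC_Med12 KO group (3 arrays) came from Med12Flox;MxCre mice, in which Cre is driven by the interferon-responsive Mx promoter and is therefore not restricted to blood cells. The HSPC_control group (3 arrays) came from control mice whose Med12 and Cre alleles the labels do not give. All cells were of B6/129 background and were taken 4 days after pI:pC, a double-stranded RNA that induces interferon, which per the source labels both groups share. They were sorted from bone marrow as negative for lineage antigens and positive for c-Kit and Sca1. Animal ages are not given, and the labels do not tie arrays to separate animals, so p-values reflect only how these arrays varied, which may be technical.

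Platelets are shed by megakaryocytes and carry receptors in fixed complexes. The integrin αIIbβ3, made of the products of Itga2b and Itgb3, binds fibrinogen and joins platelets to each other. The GPIb-IX-V complex (Gp1ba, Gp1bb, Gp9 and Gp5) catches von Willebrand factor at sites of injury, and glycoprotein VI (Gp6) recognises collagen. Von Willebrand factor (Vwf) and platelet factor 4 (Pf4) are stored in alpha-granules. Itga2b, Vwf and Pf4 are also known in mouse marrow from stem and progenitor cells that lean towards the megakaryocyte lineage, and Vwf is a classical endothelial product.

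The targeted gene and the sort gate were examined first. Med12, which encodes a subunit of the Mediator kinase module, had signals of 89.1, 100.4 and 86.4 on the HSPC_Med12 KO arrays, against 278.6, 837.4 and 441.6 on the HSPC_control arrays. The groups did not overlap, although with an adjusted p of 0.0796 in limma's test the difference missed the threshold of 0.05. A single probe set read the gene, and its place relative to the deleted part is not known here. Kit, which encodes the c-Kit of the gate, had signals of 515 to 618 in Med12 KO cells and 805 to 1425 in control cells (log2 difference -0.89; adjusted p = 0.152). Sca1 was not analysed here, and of 5 lineage genes measured, Cd3e, Cd8a and Cd5 had signals of at most 33.0 on every array, while Cd4 reached 43.7 on a control array and Itgam reached 79.1 in Med12 KO cells and 114.6 in control cells. Median signals per array were 16.5 to 21.3 in Med12 KO cells and 26.7 to 26.9 in control cells, and correlations between arrays over all probe sets were 0.965 to 0.972 within Med12 KO, 0.949 to 0.959 within control and 0.922 to 0.951 across groups.

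Itga2b rose in Med12 KO cells and the partner integrin chain, 2 of the 3 measured GPIb-IX-V genes and Cd9 had higher signals without passing the test, while Gp9, Vwf, Pf4 and Gp6 had overlapping signals in the 2 groups. All 11 probe sets had a positive log2 difference (Med12 KO minus control, of signal + 16), as did 38.8% of all probe sets. Their median was 0.73, beside -0.07 over all probe sets. Of the 11, 1 passed limma's test with Benjamini-Hochberg adjustment over all probe sets, and 0.220% of all probe sets passed in that direction. On 7 of the 11, from 5 genes, every Med12 KO array lay above every control array, which was so for 7.61% of all probe sets. In these sorted mixtures, more cells of a type and more RNA per cell cannot be told apart.

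**Figure D1:**
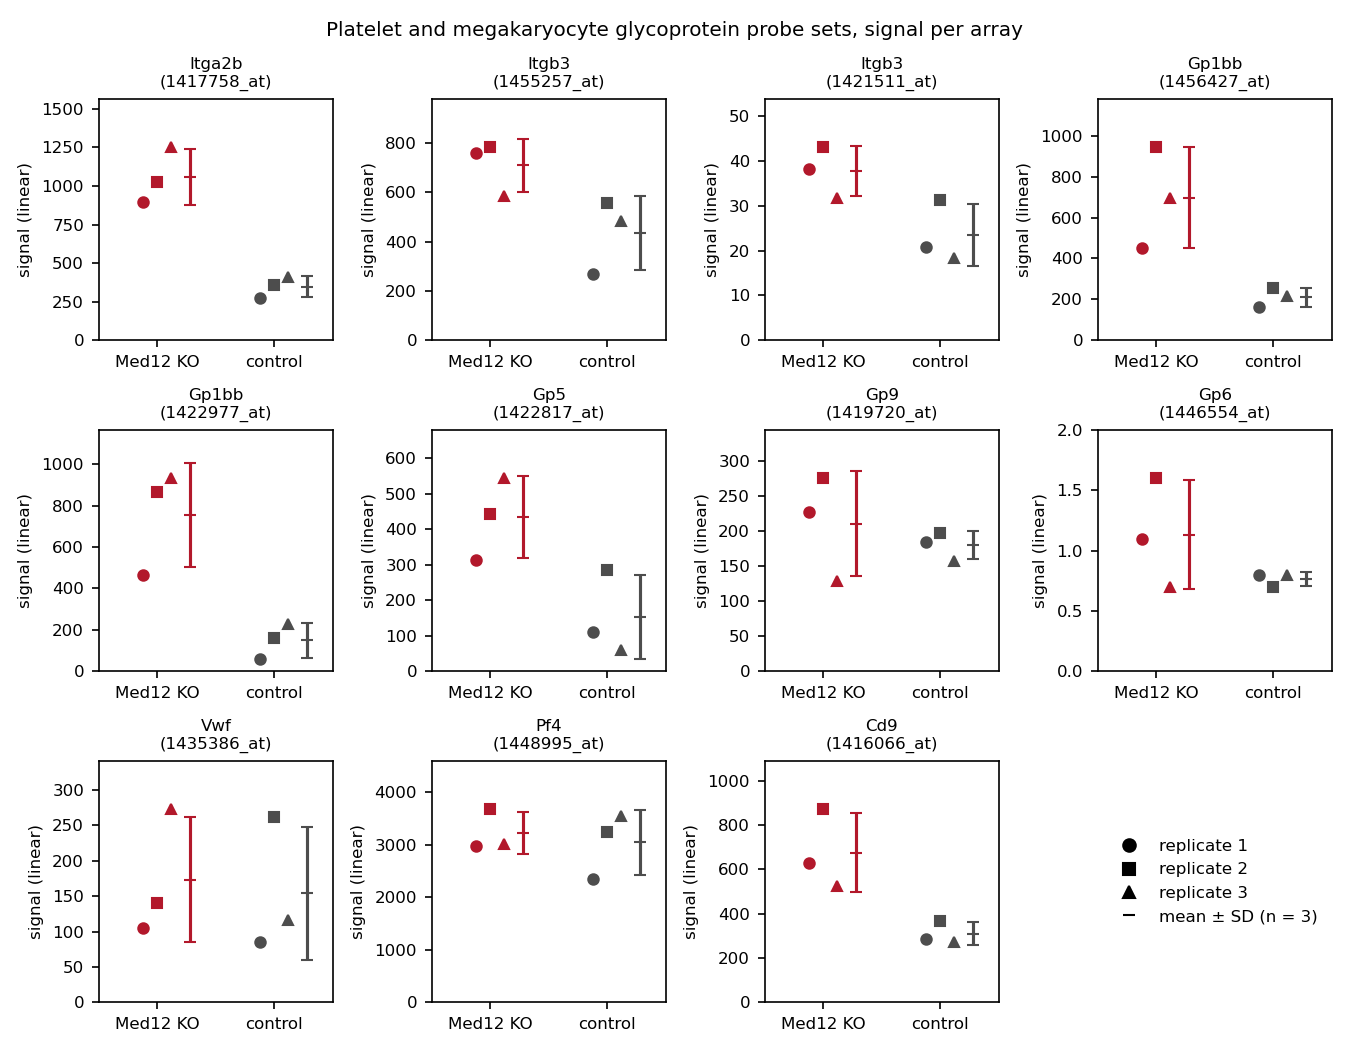
Deposited linear signal of each of the 11 probe sets on each array, Med12 KO left and control right, with symbols for replicates 1 to 3 and the mean ± SD (n = 3) beside them; every axis starts at 0. The groups separate for Itga2b, both Itgb3 and both Gp1bb probe sets, Gp5 and Cd9, and overlap for Gp9, Gp6, Vwf and Pf4.

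Both chains of the fibrinogen receptor had higher signals on every Med12 KO array, and the α chain passed the test. Itga2b, which encodes integrin αIIb, the CD41 antigen, had signals of 896.9, 1024.4 and 1251.1 in Med12 KO cells, against 276.7, 360.4 and 407.4 in control cells. The lowest Med12 KO array was above every control array by more than the whole range of the controls. The ratio of mean signals was 3.04 and the log2 difference 1.56 (SE 0.20; 95% confidence interval 1.07 to 2.06; adjusted p = 0.0431). This call needed all 6 arrays: without any 1 of them the adjusted p lay between 0.0930 and 0.146, while the log2 difference stayed between 1.41 and 1.68. It also missed the threshold after quantile (adjusted p = 0.0506) and cyclic loess (0.0529) normalization, and among 20 alternative settings it passed in 7, with adjusted p from 0.0161 to 0.181. These 7 include the looser threshold of 0.1, which is the same fit and could not fail.

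Itgb3 encodes integrin β3, which pairs with αIIb in platelets and with αv in other cells. Its brighter probe set, 1455257_at, had signals of 758.2, 781.6 and 584.1 in Med12 KO cells, against 267.5, 555.6 and 482.4 in control cells. The groups were separated by the short step between 584.1 and 555.6, and the log2 difference of 0.73 had an interval of 0.01 to 1.45 (adjusted p = 0.313). Without control replicate 1, the lowest of the controls, the difference was 0.43. The dimmer probe set, 1421511_at, had 38.2, 43.0 and 31.8 in Med12 KO cells and 20.7, 31.2 and 18.4 in control cells, a log2 difference of 0.45 (interval 0.03 to 0.87; adjusted p = 0.285). Both probe sets of the gene therefore gave the same sign and neither passed. Itgav, the αv chain and alternative partner of β3, had signals of 544.0, 304.2 and 280.6 in Med12 KO cells and 341.8, 151.6 and 363.4 in control cells, which overlapped (log2 difference 0.41; adjusted p = 0.701).

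Within the von Willebrand factor receptor, Gp1bb and Gp5 were higher in every Med12 KO array and Gp9 was not. Gp1bb encodes the β chain of glycoprotein Ib, which is disulphide-linked to the ligand-binding α chain. Probe set 1456427_at had signals of 450.9, 943.2 and 694.6 in Med12 KO cells, against 162.3, 253.6 and 217.0 in control cells. The ratio of means was 3.30 and the log2 difference 1.61 (SE 0.30; interval 0.86 to 2.35; adjusted p = 0.0921). Probe set 1422977_at had 465.3, 867.0 and 931.8 in Med12 KO cells and 61.4, 161.0 and 228.4 in control cells, a ratio of 5.02 and a log2 difference of 2.30 (SE 0.49; interval 1.10 to 3.50; adjusted p = 0.109). The 2 probe sets had their highest Med12 KO signal on different arrays, but neither group overlapped the other in either. Both passed with a trended and robust variance prior (adjusted p = 0.0462 and 0.0478) and without the dimmest 25% of probe sets (0.0428 and 0.0425). In all, 1456427_at passed in 5 of 20 alternative settings, the looser threshold of 0.1 among them, and 1422977_at in 3 of 19. The highest adjusted p was 0.259 and 0.293, with the plain equal-variance test. Gp1bb overlaps the neighbouring gene Septin5 in the RefSeq annotation, and 1 further probe set, annotated to both genes and so no member, had 29.0, 27.3 and 11.9 in Med12 KO cells and 14.0, 21.2 and 15.2 in control cells (log2 difference 0.21; interval -0.33 to 0.76).

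Gp5 encodes glycoprotein V, the thrombin-cleaved subunit of the complex. Its signals were 313.5, 444.2 and 544.3 in Med12 KO cells, against 111.6, 286.7 and 60.2 in control cells. The controls spread widely, with replicate 2 close to the lowest Med12 KO array. The ratio of means was 2.84, and the log2 difference of 1.62 (SE 0.52; interval 0.34 to 2.89) did not pass (adjusted p = 0.222). Without control replicate 2 it was 2.16, and over the 6 fits that each left out 1 array it was 1.16 to 2.16. Gp9 encodes glycoprotein IX, needed for assembly of the complex at the surface, and had 226.7, 275.1 and 129.2 in Med12 KO cells, against 184.6, 197.6 and 157.8 in control cells. Med12 KO replicate 3 was below, and replicates 1 and 2 were above, all controls, and the log2 difference was 0.15 (interval -0.53 to 0.83; adjusted p = 0.854). The upper end of that interval lies below the estimates for Gp1bb and Gp5, a difference between genes that was not itself tested.

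The promoters of Itga2b, Gp1bb and Gp5, among the genes whose signals separated the groups, and of Pf4, whose signals did not, are shown. Megakaryocyte genes are known for sites of GATA and ETS factors close to their start. Cd9 also separated the groups, and its window, not printed, held 0 GATA and 1 ETS match. RefSeq promoter sequences of GRCm38.p6, from 250 bases before to 50 bases after each start, matched 8 of the 10 genes by symbol. Capitals mark matches on either strand to a GATA motif or to an ETS motif. The GATA motif was read as AGATAA and its variant AGATAG, and equally as TGATAA and its variant TGATAG. The ETS motif was read as AGGAAG and its variant CGGAAG. The windows were chr11:102469834-102470133, minus strand; chr16:18622354-18622653, minus strand; chr16:30310732-30311031, minus strand; and chr5:90772185-90772484, plus strand.
Itga2b: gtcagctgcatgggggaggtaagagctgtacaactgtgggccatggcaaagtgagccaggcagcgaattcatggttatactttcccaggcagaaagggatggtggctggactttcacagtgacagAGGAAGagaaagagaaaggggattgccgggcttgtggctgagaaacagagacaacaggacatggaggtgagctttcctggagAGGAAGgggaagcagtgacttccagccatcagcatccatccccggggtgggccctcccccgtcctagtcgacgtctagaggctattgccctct
Gp1bb: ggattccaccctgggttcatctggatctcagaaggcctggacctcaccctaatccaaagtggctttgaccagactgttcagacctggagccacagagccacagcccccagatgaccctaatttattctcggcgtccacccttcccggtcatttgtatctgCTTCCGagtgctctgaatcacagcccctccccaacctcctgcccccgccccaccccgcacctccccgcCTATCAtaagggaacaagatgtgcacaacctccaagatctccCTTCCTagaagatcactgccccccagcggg
Gp5: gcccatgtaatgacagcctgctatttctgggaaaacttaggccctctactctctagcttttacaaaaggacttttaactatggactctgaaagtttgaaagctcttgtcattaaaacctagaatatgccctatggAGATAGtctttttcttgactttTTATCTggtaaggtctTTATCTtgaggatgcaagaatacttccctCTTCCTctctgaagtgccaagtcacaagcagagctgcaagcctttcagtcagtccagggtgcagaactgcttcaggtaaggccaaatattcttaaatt
Pf4: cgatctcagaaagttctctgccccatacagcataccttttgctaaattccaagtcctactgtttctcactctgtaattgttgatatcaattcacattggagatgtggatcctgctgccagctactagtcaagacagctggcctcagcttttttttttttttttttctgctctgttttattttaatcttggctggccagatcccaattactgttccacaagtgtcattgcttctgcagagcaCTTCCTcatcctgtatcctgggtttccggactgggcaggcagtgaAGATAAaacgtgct
The Itga2b window held 0 GATA and 2 ETS matches, and the Gp1bb window 1 and 2. The Gp1bb GATA match lay 22 to 17 bases before the start. The Gp5 window held 3 GATA matches within 115 bases before the start and 1 ETS match. The Pf4 window held 1 of each, the GATA match after the start and the ETS match 9 to 4 bases before it. Of the 8 windows 5 had a GATA match (Gp1ba, Gp1bb, Gp5, Gp6 and Pf4), against 29.8% of 32851 promoters of the same length. An ETS match was in 7, against 46.5%. Itga2b, Gp9 and Cd9 had no GATA match. The Gp9 window, chr6:87777820-87778119 on the plus strand, lies inside the annotated gene, which begins at 87776131. Its result therefore concerns a start inside the gene, and sequence before 87776131 was not read. The 8 include Gp1ba, which was not analysed here, and Gp6, with signals under 16 on every array. Itgb3 and Vwf had no window. No overlap between the motifs occurred in the windows printed. These counts describe letters only, and the arrays do not measure binding.

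The collagen receptor was too dim to compare. Gp6 had signals of 1.10, 1.60 and 0.700 in Med12 KO cells and 0.800, 0.700 and 0.800 in control cells, where signals under 16 made up 41.6% to 49.5% of probe sets per array. With 16 added before log2, its difference of 0.03 (interval -0.23 to 0.29) has little room to differ from 0.

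The alpha-granule proteins did not separate the groups. Pf4, the chemokine-like platelet factor 4, had signals of 2976.8, 3679.2 and 3021.7 in Med12 KO cells, against 2344.9, 3237.9 and 3552.8 in control cells. One control array was below the Med12 KO arrays and the other 2 lay within their range, and the log2 difference was 0.10 (SE 0.20; interval -0.39 to 0.58; adjusted p = 0.875). The upper end of that interval lies below the lower end of the interval of Itga2b, a contrast that was not tested. Vwf, which encodes von Willebrand factor, had 105.2, 140.9 and 272.8 in Med12 KO cells, against 84.7, 261.1 and 116.3 in control cells. One array in each group was about as high as the other, Med12 KO replicate 3 and control replicate 2, and the log2 difference of 0.19 had the wide interval of -0.99 to 1.37 (adjusted p = 0.904). Its direction turned without Med12 KO replicate 3 (-0.16) or control replicate 1 (-0.12), and that of Pf4 turned without control replicate 1 (-0.08).

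Cd9 encodes a tetraspanin that lies beside integrins in the platelet membrane and is also found on many other cells. Its signals were 627.0, 871.1 and 525.5 in Med12 KO cells, against 287.9, 368.7 and 274.2 in control cells. All Med12 KO arrays were above all controls, with a ratio of means of 2.17. The log2 difference was 1.06 (SE 0.23; interval 0.51 to 1.62; adjusted p = 0.109), and it stayed between 0.87 and 1.34 under all 20 alternative settings. It passed in 1 of these settings, after each array was centred on its median (limma, adjusted p = 0.0400). The highest adjusted p was 0.269, with the plain equal-variance test.

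**Figure D2:**
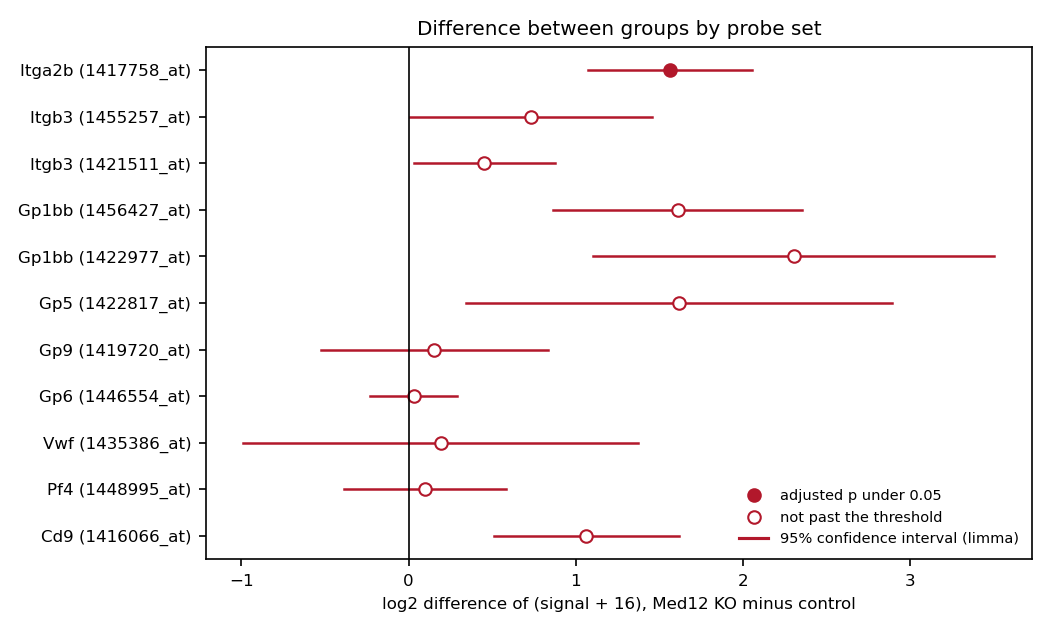
Log2 difference of signal + 16 (Med12 KO minus control) for each probe set, with limma's 95% confidence interval; the filled point passed the threshold on the adjusted p. Itga2b is the filled point at 1.56, and the intervals of Gp9, Gp6, Vwf and Pf4 include 0.

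The scale of the arrays bears on these differences. Centring each array on its median moved the median over all probe sets to 0.20 and the share of higher calls among all calls to 62.2%, beside 28.9% as deposited, 43.0% after quantile normalization and 9.5% with 1 added before log2. Relative to all probe sets the member median was 0.80 as deposited, which centring cannot change, and 0.71 after quantile and 0.73 after cyclic loess normalization. All 33 member differences were positive under these 3 scalings.

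Among further platelet genes, none of the receptor, granule and integrin activation genes passed limma's test as reported. Under 13 alternative settings that keep all 6 arrays, 0 to 2 receptor genes, 0 to 1 granule genes and 0 integrin activation genes passed. Of 18193 genes, each read by its probe set of highest mean, 0.352% passed higher and 0.638% lower, and the median difference was -0.05. Of 21 further platelet receptor genes 0 passed in limma's test, with 7 at an unadjusted p under 0.05 (3303 over all 18193 genes). Positive differences were seen in 12, beside 42.2% of all genes, and the median was 0.34. The thrombin receptor F2r had signals of 1838.6, 2098.9 and 1954.7 in Med12 KO cells, against 1262.7, 1214.0 and 1291.7 in control cells (log2 difference 0.64; adjusted p = 0.0855). The ADP receptor P2ry1 was at 1.31 (adjusted p = 0.0867), with 123.3, 181.8 and 105.8 in Med12 KO cells and 59.8, 37.8 and 37.9 in control cells. In the other direction, Fcer1g, the signalling chain that glycoprotein VI requires, was at -0.73 (adjusted p = 0.104), and the platelet endothelial aggregation receptor Pear1 at -1.32 (adjusted p = 0.157). These last pairs of groups did not overlap either, so receptors with separated groups lay on both sides of 0. Every Med12 KO array lay above every control array for 5 of the 21, and below for 4. Over all 18193 genes this was so for 1792 and 2470.

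Of 19 genes of alpha-granule cargo and granule formation 0 passed in limma's test, with 5 at an unadjusted p under 0.05 (3303 over all 18193 genes). Their median of -0.07 turned to 0.20 after median centring and to 0.0031 after quantile normalization. F13a1, the coagulation factor XIII A chain, which monocytes make too, had 30.8, 44.1 and 46.8 in Med12 KO cells, against 1046.8, 236.1 and 1105.5 in control cells (log2 difference -3.58; adjusted p = 0.0738). Rab27b, a GTPase of granule secretion, was at 0.75 (adjusted p = 0.136), Angpt1 at -0.83 (0.168) and coagulation factor V (F5) at -0.73 (0.178). Of 19 genes of integrin activation and the platelet cytoskeleton 0 passed in limma's test, with 4 at an unadjusted p under 0.05, and their median of -0.06 turned to 0.21 and 0.06 under these scalings. Vinculin (Vcl), which links integrins to actin, was at 0.82 (adjusted p = 0.185), the GTPase gene Rap1a at 0.39 (0.214), Apbb1ip, which couples Rap1 to talin, at -0.47 (0.193) and the kinase gene Syk at -0.59 (0.311).

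Of 17 transcription factor genes of the megakaryocyte lineage Gata1 passed, and the median was -0.09, or 0.19 after median centring. Gata1, a regulator of both megakaryocytes and red cells, rose to 835.5, 860.9 and 1229.9 in Med12 KO cells, against 178.1, 309.4 and 201.3 in control cells (log2 difference 2.03; adjusted p = 0.0424). Gata1 no longer passed with 1 or 64 added before log2, with the floor of 16, after cyclic loess normalization, with the replicate block or with the plain test. Gfi1b, a transcriptional repressor that acts in both lineages, was at 0.76 (adjusted p = 0.108). The ETS family factors Etv6 at -1.04 (0.0800) and Erg at -1.09 (0.129) were instead lower on every Med12 KO array.

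**Figure D3:**
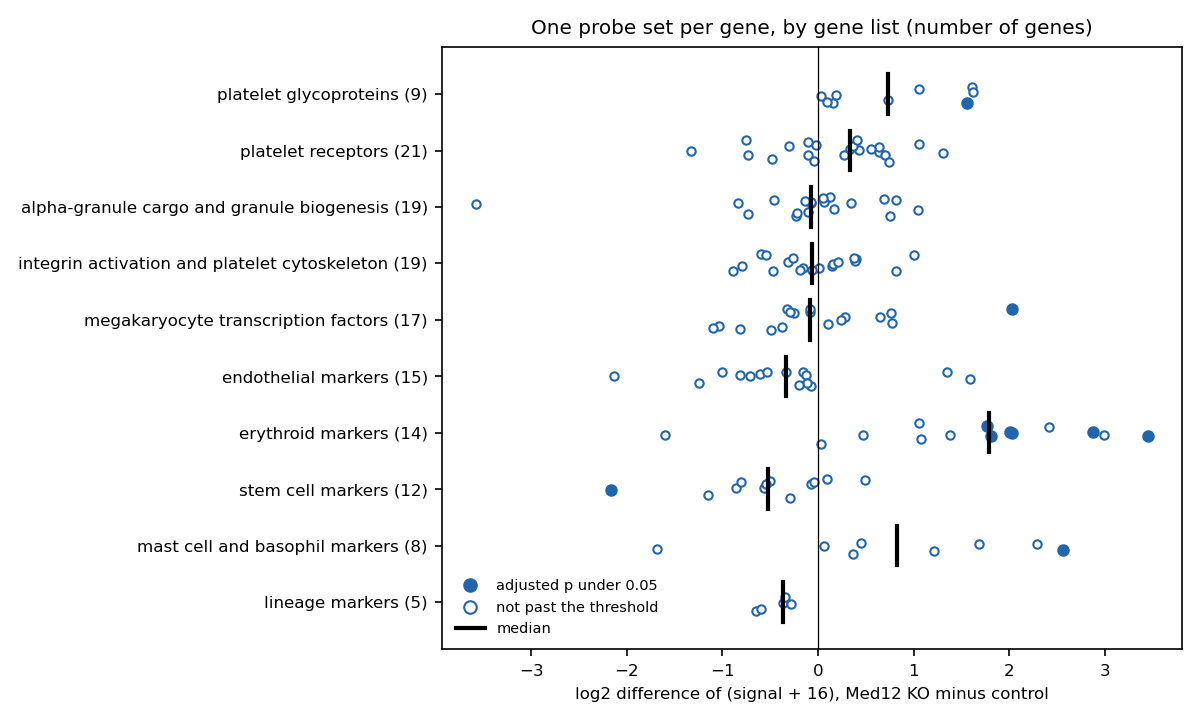
Log2 difference (Med12 KO minus control) of each gene, 1 probe set per gene, for the glycoproteins and the related lists, with the number of genes in brackets; filled points passed the threshold and bars mark medians. The glycoprotein median is 0.73 and the erythroid marker median 1.79, while the granule, integrin activation and transcription factor lists have medians within 0.1 of 0.

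Markers of other cell types that could share the gate were also read. Of 14 erythroid markers 6 passed, all higher, namely Klf1, Epor, Car1, Rhag, Kel and Blvrb, and the median was 1.79. Over the 13 settings 0 to 7 erythroid markers passed, with 0 under the floor of 16, the replicate block and the plain equal-variance test. The summed signal of these 14 genes was 9342 to 15401 in Med12 KO cells and 3948 to 4541 in control cells. The red cell maturation marker Slc4a1 was at -1.60, and Hba-a1 was listed at signals under 16 on every array. Of 8 mast cell and basophil markers Cma1 passed, higher, the median was 0.83 and the summed signal was 2403 to 2713 in Med12 KO cells and 1404 to 1818 in control cells. Gzmb was at 1.68 (limma's adjusted p = 0.0859), Fcer1a at 2.29 (0.196) and Ms4a2 at 1.21 (0.251). Not all went the same way, with Mcpt8 at -1.69 (0.298) and Cpa3, the brightest of the 8, at 0.07 (0.903). Of 12 stem cell markers Hlf passed, lower, the median was -0.52 (-0.25 after median centring) and the summed signal was 3739 to 4708 in Med12 KO cells and 6384 to 9139 in control cells. Of 15 endothelial markers 0 passed in limma's test, with 5 at an unadjusted p under 0.05 (3303 over all 18193 genes). Their median was -0.34, or -0.06 after median centring, and their summed signal was 1507 to 1682 in Med12 KO cells and 2178 to 2730 in control cells. The 4 endothelial markers of smallest unadjusted p went both ways. Pecam1 was at -1.24 (limma's adjusted p = 0.105) and Robo4 at -2.13 (0.134). Tek was at 1.35 (0.185) and Plvap at 1.59 (0.218), the only 2 of the 15 with a positive difference. Mean signals in Med12 KO and control cells were 184.9 and 444.6 for Pecam1, and 211.9 and 82.2 for Tek. Among the dim endothelial markers, Cdh5, Sox17 and Flt1 had mean signals of 4.10 to 8.10 in Med12 KO cells and 6.20 to 10.8 in control cells. No gene of these 4 lists was at 0 on any array. The part of any of these cells in the glycoprotein differences was not tested. The calls of Hlf and Cma1 were both lost with 1 or 64 added before log2, with the floor of 16, with the replicate block and with the plain test, that of Hlf also after quantile normalization, and that of Cma1 also after cyclic loess normalization and with array weights. With any 1 array left out, 0 of the 9 calls in the related lists passed in limma's test.

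**Figure D4:**
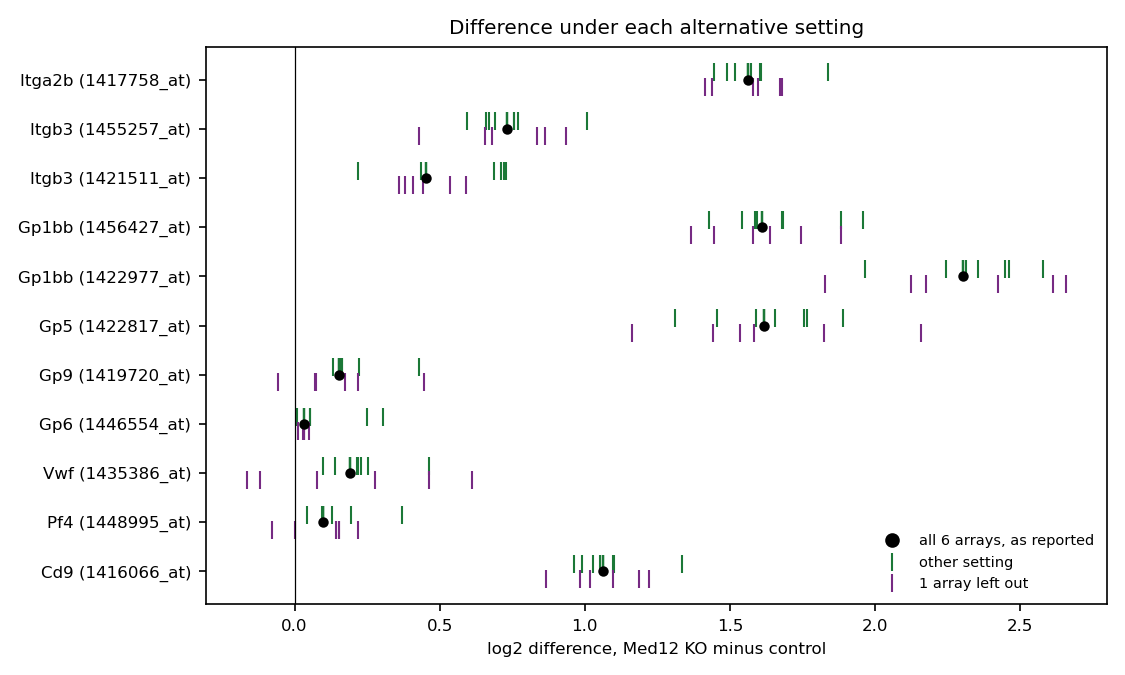
Log2 difference (Med12 KO minus control) of each probe set as reported (dots), under the other settings (upper ticks) and with 1 array left out (lower ticks). Itga2b, Itgb3, Gp1bb, Gp5 and Cd9 stay above 0 throughout, whereas Gp9, Vwf and Pf4 cross 0 when single arrays are left out.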

How the data were processed

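The authors deposited a signal intensity for every probe set on every array. RMA is the tool in the submitters' processing notes, with no version, whereas the deposited values are linear with a minimum of 0 on every array, so the method that made them is not given in the sources used here. The trimmed mean, taken without the extreme values at both ends, was 149.1 to 149.3 on every array, while medians ran from 16.5 to 26.9. The arrays thus share a trimmed mean but not a median. Scan dates and scanner files were not used here. Total RNA (5 ng) was amplified before labelling, per the labels' protocols. Of 45101 rows, 64 control probe sets were left out. The platform annotation named 34945 probe sets with 1 symbol, 932 with several and 9160 with none, and 18193 genes were represented by their probe set of highest mean.

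Groups were compared on log2(signal + 16) with limma 3.58.1 (R 4.3.3), fitting lmFit and then eBayes. Its two-sided moderated test had 4 degrees of freedom from the arrays and 1.96 from the prior. Adjustment was by Benjamini-Hochberg over all 45037 probe sets and a threshold of 0.05. The offset understates differences of dim genes. Means and ratios use the deposited signals. The number of arrays limits the precision.

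Members and gene lists were chosen with earlier results of these data known. Named genes were every member, Med12, up to 4 genes per related list by unadjusted p, and all list genes that passed. Itgav, the lineage genes, Slc4a1, Hba-a1, Ank1, Ermap, Aqp1, Alas2, Mcpt8, Cpa3, Cdh5, Sox17 and Flt1 were named after their values were seen. Of 146 list entries 131 were measured, 1 through an older symbol. The fit was tested on simulated data. Alternatives were other offsets and scalings, variance priors, filters, a replicate block, a plain equal-variance test, a looser threshold, the mean of a gene's probe sets, and leaving out each array. All 6 value columns were used.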

Additional observations from a re-analysis of the deposited data

How the results depend on the processing

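Of 215 differences of single members under the alternatives, 210 were positive. The trended prior, the filters, the replicate block, the plain test and the looser threshold leave the difference itself unchanged. All settings reuse the same 6 arrays, so this count is no independent support for the direction. The count of member probe sets past the threshold was 1 as reported. It was 0 with limma when 1 or 64 was added before log2, with a floor of 16, after quantile and after cyclic loess normalization, and with the replicate block, and 0 with the plain equal-variance test. In these fits 4 to 6 members had an unadjusted p under 0.05, as did 5005 to 6768 of all 45037 probe sets. The member count was 3 after centring on array medians, with the trended and robust prior, and without the dimmest 25% or dimmer 50% of probe sets, and 2 at an adjusted p of 0.1. The count over all probe sets, 343 as reported, was 42 with 1 added, 84 with the floor, 693 after centring, 712 and 763 with these filters, 1159 at an adjusted p of 0.1, 1 with the plain test and 0 with the replicate block, where 6752 had an unadjusted p under 0.05. With 1 array left out limma called 0 to 10 of all probe sets and 0 members (the range over the 6 fits was 0 to 0). In these 6 fits 4 to 7 members and 5340 to 7141 of all probe sets had an unadjusted p under 0.05. The differences then ranged from -0.057 to 0.44 for Gp9, negative without Med12 KO replicate 2, from -0.16 to 0.61 for Vwf and from -0.079 to 0.22 for Pf4. Pf4 was at -7.8e-05 without Med12 KO replicate 2. Deviations of same-numbered arrays from their group means correlated at 0.002 to 0.019, and those of different-numbered arrays at -0.057 to 0.034. These values over all probe sets cannot decide whether the numbers pair the arrays. With the block the SE fell from 0.20 to 0.14 for Itga2b and from 0.23 to 0.15 for Cd9. For Gp1bb it fell from 0.30 to 0.16 and from 0.49 to 0.19. Among member probe sets only that of Gp6 had a larger SE (0.11 to 0.13). With 2 residual degrees of freedom the block took Itga2b to an adjusted p of 0.153 in limma's test. The causes of the other changes were not tested. Gp6 had no value under the floor, which all its signals lay below.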

Other observations

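Among 18192 other genes, those whose mean-centred log2 profile over the 6 arrays lay nearest to that of Itga2b were Abcb10, Gna14, Arap3, Aars and Homer1, at root mean square distances of 0.12 to 0.18 (log2). The nearest other glycoprotein was Gp1bb at 0.29, followed by Cd9 at 0.44 and Itgb3 at 0.52. The profile is mostly the difference between the groups, and the 5 genes had differences of 1.35 to 1.75.

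Within the groups, the glycoproteins were often highest on the same array. Control replicate 2 was the highest control on 7 of the 11 probe sets, as it was on 30.7% of all probe sets. Med12 KO replicate 2 was the highest Med12 KO array on 7 of the 11, against 38.2% of all. Both counts hold the 2 probe sets of Itgb3, and the Med12 KO count holds Gp6, which was too dim to compare. With 1 probe set per gene each count was 6 of 9. In Med12 KO cells, Gp9 and the receptor Treml1, a platelet granule membrane protein, were both highest on replicate 2 and lowest on replicate 3, with Treml1 at 184.6, 258.4 and 73.9 in Med12 KO cells and 75.2, 122.7 and 86.9 in control cells. The platelet chemokine gene Ppbp (111.4, 230.5 and 57.6 in Med12 KO cells; 12.7, 58.0 and 108.2 in control cells) and the platelet tubulin gene Tubb1 (61.4, 164.6 and 24.1 in Med12 KO cells; 31.1, 15.2 and 31.4 in control cells) had the same order in Med12 KO cells. Treml1, Ppbp and Tubb1 were singled out after their values were seen, and the share of all probe sets with this order was not counted. Itga2b, Gp5, Vwf and Gp1bb probe set 1422977_at were instead highest on Med12 KO replicate 3 (1251.1, 544.3, 272.8 and 931.8).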
